A study of Mus musculus with 6 samples.

Results

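Trp53inp1 and p53 target genes were followed as a set of 10 listed symbols in T cells sorted from the spleens of 6 mice after bone marrow transplantation. A gene was measured where the platform's probe table held a probe set naming that symbol and no other. By this rule 8 of the 10 genes were measured, of 19938 genes in all, and each of the 8 had 1 such probe set. They were Trp53inp1, Perp, Phlda3, Eda2r, Mdm2, Ccng1, Zmat3 and Ei24. The probe set that names Cdkn1a names a second gene too, and no listed probe set named Trp53, so these genes were not analysed here. The set was chosen by an earlier result of this same comparison, in which Trp53inp1 was among the genes with the smallest p in the lower direction, and each probe set by its mean over the 6 arrays. The values of the 8 genes below are therefore a description and carry no test.

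All 6 recipients were B6D2F1/J mice, an F1 hybrid strain with a B6 parent, and all had been lethally irradiated and rebuilt with B6 bone marrow from which T cells had been removed. Some transplants in the protocol also contained B6 spleen cells, and which of the 6 mice received them is not stated. Rapamycin, which inhibits the growth kinase mTOR, was injected into the peritoneum at 1.5 mg/kg every other day to day 10 in 3 mice, and the other 3 received phosphate-buffered saline (PBS) on that schedule. On day 10 the CD3-positive cells of each spleen were sorted and their RNA was hybridised to 1 whole-transcript array per mouse. Whether the sorted cells came from donor or host is not given, and neither are the ages of the mice. Values are log2 expression, on which a difference of 1 is a doubling, and every difference is rapamycin minus PBS. Array medians lay between 6.03 and 6.17. Cd3e, a chain of the CD3 complex used for the sort, measured 12.87 ± 0.05 with PBS and 12.84 ± 0.08 with rapamycin (SD, n = 3 each).

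The transcription factor p53 is stabilised after DNA damage, including the damage done by irradiation, and switches on genes that halt the cell cycle, start cell death or repair DNA. Its protein is kept low by Mdm2, itself a p53 target, which closes a feedback loop. Thymocytes and resting lymphocytes are well known for p53-dependent death after irradiation. Trp53inp1 encodes a p53-induced nuclear protein that takes part in stress responses, cell death and autophagy.

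Trp53inp1 and Perp lay lower in every rapamycin mouse than in every PBS mouse, by 1.43-fold and 1.62-fold. The other 6 genes overlapped between the groups, with differences from -0.13 to 0.05. Of the 8 genes, 0 passed limma's test across all genes at an adjusted p of 0.05, beside 0.00502% of the genes tested. The 2 genes whose groups lay apart in the lower direction stand beside 6.28% of all genes that did so. The same 2 had an unadjusted p under 0.05, beside 3.07% of all genes in that direction. Since this comparison was known when the genes were chosen, nothing is read from these counts.

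**Figure D1:**
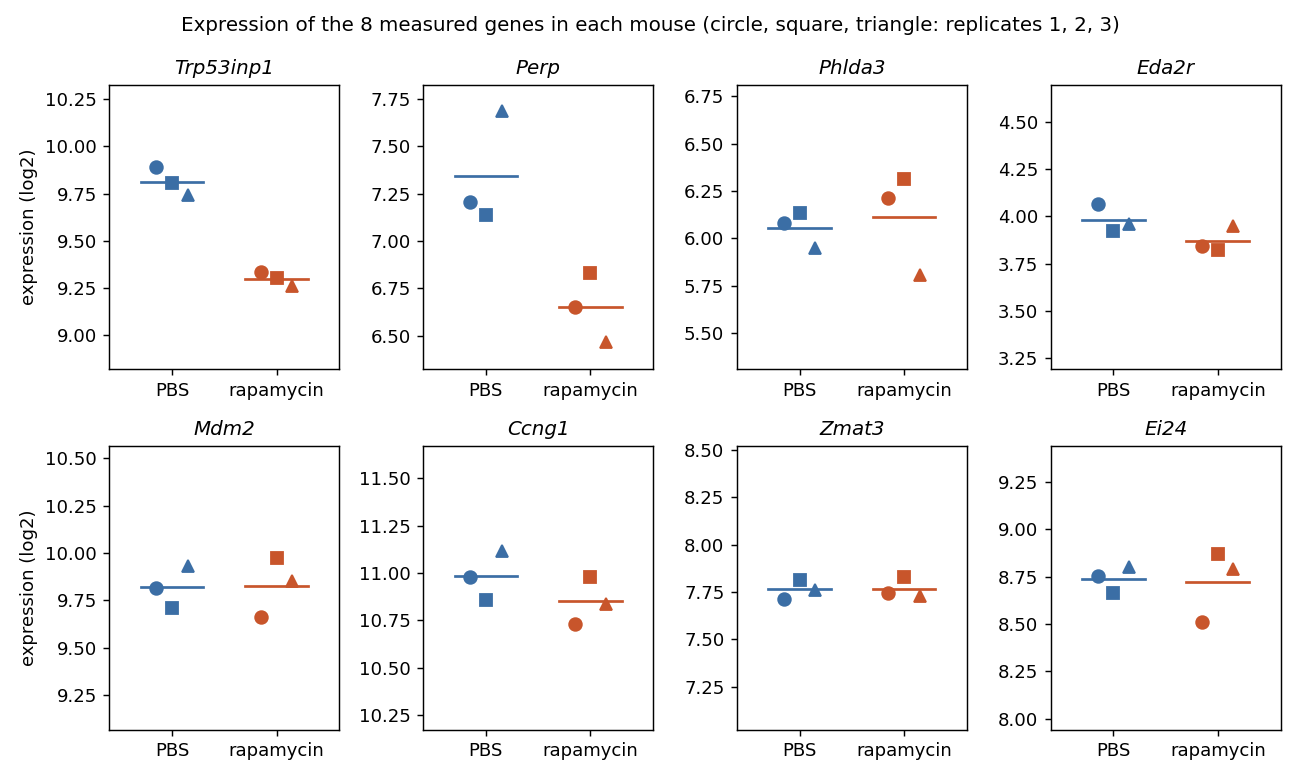
Expression (log2) of the 8 measured genes in each mouse, with PBS in blue and rapamycin in orange, lines at the group means and the same 1.5 log2 height in every panel. The 3 rapamycin mice lie below the 3 PBS mice for Trp53inp1 and Perp, and the groups overlap for the other 6 genes.

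Trp53inp1 measured 9.89, 9.81 and 9.74 in PBS replicates 1, 2 and 3 and 9.34, 9.30 and 9.26 in rapamycin replicates 1, 2 and 3. Mice within a group lay close together, and the lowest PBS mouse stood 0.40 above the highest rapamycin mouse. The means were 9.81 ± 0.07 and 9.30 ± 0.04 (SD, n = 3 each), a difference of -0.51 (SE 0.08, 95% interval -0.69 to -0.34). Leaving out any one mouse gave -0.55 to -0.47. The arrays measure RNA of a sorted mixture, in which fewer cells expressing a gene and less of its RNA per cell cannot be told apart.

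Perp encodes a tetraspan membrane protein that p53 induces in cell death and that also belongs to desmosomes of epithelia. It measured 7.21, 7.14 and 7.69 in PBS replicates 1, 2 and 3 and 6.65, 6.83 and 6.46 in rapamycin replicates 1, 2 and 3. PBS replicate 3 stood above the other PBS mice, and the groups were 0.30 apart at their nearest mice. The difference was -0.69 (SE 0.16, 95% interval -1.05 to -0.34), and it was -0.52 without PBS replicate 3. The spread was wider than for Trp53inp1, with an SD of 0.30 with PBS and 0.18 with rapamycin.

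Of the other genes linked to cell death, Phlda3, whose product competes with the kinase Akt for membrane lipids, measured 6.08, 6.14 and 5.95 in the PBS mice and 6.21, 6.31 and 5.81 in the rapamycin mice. Replicate 3 was the lowest of each group, and the rapamycin values reached past both ends of the PBS values. The difference was 0.05 (SE 0.13, 95% interval -0.25 to 0.36). Eda2r, a death receptor relative that binds ectodysplasin, measured 4.06, 3.92 and 3.96 with PBS and 3.84, 3.82 and 3.95 with rapamycin, in replicate order. Rapamycin replicate 3 lay above PBS replicate 2, so the groups overlapped. The difference was -0.11 (SE 0.08, 95% interval -0.29 to 0.07). All Eda2r values lay below the array medians, and so did every PBS value and rapamycin replicate 3 of Phlda3. Whether either gene was detected was not tested.

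Mdm2, the ubiquitin ligase that marks p53 for degradation, measured 9.81, 9.71 and 9.93 with PBS and 9.66, 9.97 and 9.85 with rapamycin. The highest and the lowest of the 6 values both came from rapamycin mice. The difference was 0.01 (SE 0.10, 95% interval -0.23 to 0.25). Ccng1, which encodes cyclin G1, a partner of a phosphatase that acts on Mdm2, measured 10.98, 10.86 and 11.11 with PBS and 10.73, 10.98 and 10.84 with rapamycin. Its difference was -0.13 (SE 0.10, 95% interval -0.36 to 0.09), and rapamycin replicate 2 lay level with the PBS mean.

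Zmat3, an RNA-binding zinc finger protein induced by p53, was the steadiest of the 8 genes. It measured 7.71, 7.82 and 7.76 with PBS and 7.75, 7.83 and 7.73 with rapamycin, a range of 0.12 over all 6 mice. The difference was 0.00 (SE 0.08, 95% interval -0.17 to 0.18). Ei24, a p53-induced protein of the endoplasmic reticulum needed for autophagy, measured 8.75, 8.66 and 8.80 with PBS and 8.51, 8.87 and 8.79 with rapamycin. Rapamycin replicate 1 stood below all other mice, and the difference was -0.02 (SE 0.11, 95% interval -0.26 to 0.22).

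**Figure D2:**
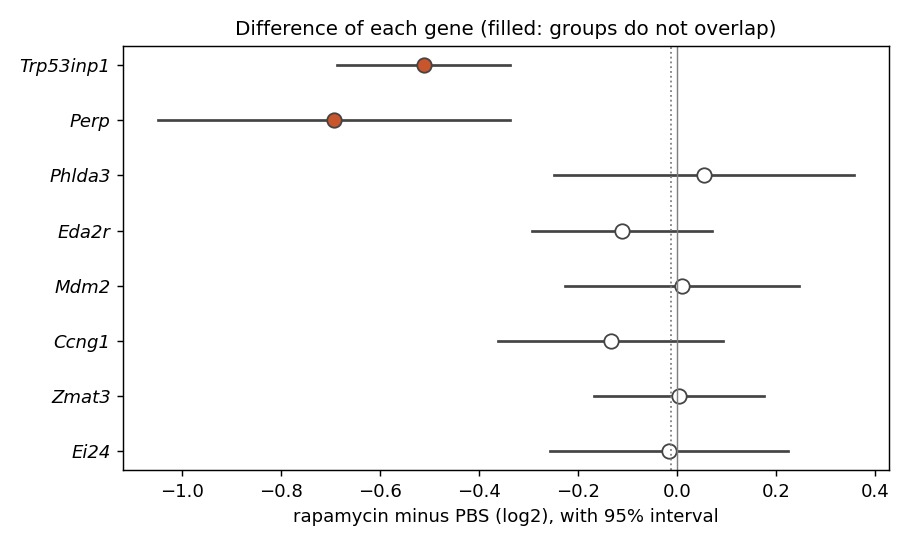
Difference (rapamycin minus PBS, log2) of each measured gene with its 95% interval from the fit across all genes, where filled points are genes whose groups do not overlap and the dotted line is the median of all genes at -0.01. The intervals of Trp53inp1 and Perp end at -0.34, and those of the other 6 genes span 0. The genes were chosen with this comparison known, so the intervals are a description and carry no test.

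Over the 8 genes, 5 differences were negative and the median was -0.06, beside 55.3% negative and a median of -0.01 over all genes. Without Trp53inp1 and Perp, 3 of 6 were negative and the median was -0.01. The sign of the small differences depended on single mice: with rapamycin replicate 2 left out all 8 were negative, and with rapamycin replicate 1 left out 4 were. Subtracting array medians moved Ei24 from -0.02 to 0.00 and left 4 negative.

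Mdm2, Ccng1 and Ei24 ranked the mice alike. In each of these 3 genes PBS replicate 2 was lowest and PBS replicate 3 highest with PBS, and rapamycin replicate 1 was lowest and rapamycin replicate 2 highest with rapamycin. This order was noticed in the values, and 1101 of all 19938 genes, or 5.52%, shared it. Trp53inp1 ranked the mice differently, with replicate 1 highest and replicate 3 lowest in both groups. Perp had the order of these 3 genes among the PBS mice, but among the rapamycin mice it was lowest in replicate 3.

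Promoter sequence of the members was searched for a decamer, 1 of the pair that makes up p53's consensus site. Of the members, measured or not, 7 had promoter sequence and 5 of these held it, Trp53 and Cdkn1a among them. The listed p53 targets, regulators and relatives of Trp53inp1 were searched too. Gadd45a, Gtse1, Ckap2, Bax, Aen, Siva1, Polk and Sesn1 among the targets held it, as did the regulators Ppm1d and Rchy1. Most of the other listed genes with promoter sequence did not. The order of the mice played no part in the search. The RefSeq table of build GRCm38.p6, which gives 250 bases before and 50 after a gene's start, had an entry for 5 of the 8 measured genes. The decamer reads as its own reverse complement, so 1 search covers both strands. It was found in 3 of these 5, Mdm2, Ccng1 and Ei24, and not in the windows of Phlda3 and Eda2r, and 8.36% of the 32851 promoters in the table held it. The matches are in capitals below, with up to 15 bases on each side and none past the gene's start, 5′ to 3′ on the gene's own strand, which is the minus strand for all 3, at chr10:117710920-117710959, chr11:40755447-40755486 and chr9:36797335-36797359.
Mdm2: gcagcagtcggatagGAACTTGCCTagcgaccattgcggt
Ccng1: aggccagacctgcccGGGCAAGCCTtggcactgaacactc
Ei24: tgccccgtgcggcccGGGCATGCCC
Each is a match of letters and not a measured binding site. The whole pair of decamers was also searched for. The windows of Mdm2, Ccng1, Ei24, Phlda3 and Eda2r each held 0 matches to the pair, beside 0.073% of the 32851 promoters that held it. Among all members only Cdkn1a, which was not measured, held 1.

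**Figure D3:**
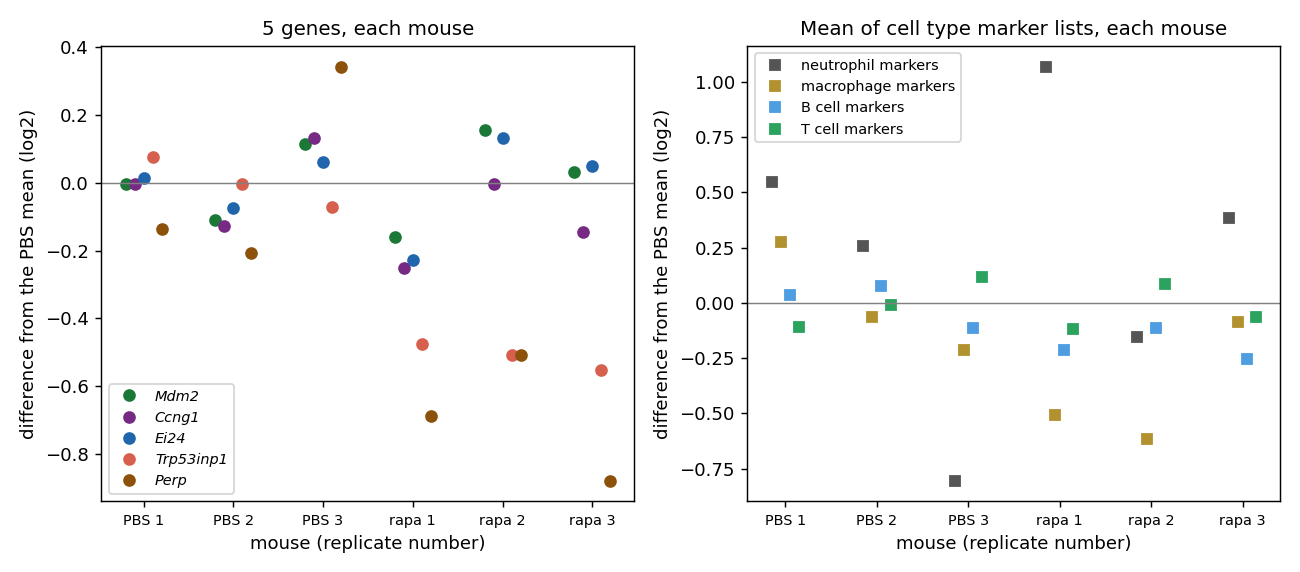
Difference of each mouse from the PBS mean (log2) for 5 genes (left) and for the mean of 4 marker lists (right), where rapa is rapamycin and numbers are replicates. Mdm2, Ccng1 and Ei24 are lowest in rapamycin replicate 1, the mouse with the highest neutrophil and the lowest T cell markers. Among the PBS mice these genes are lowest in replicate 2, whereas the neutrophil markers are highest in replicate 1. Trp53inp1 and Perp are below the PBS mean in all 3 rapamycin mice.

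Markers of other cells differed among the sorted samples. The mean of 8 neutrophil genes lay at 8.53 to 9.88 in the PBS mice, against 9.18 to 10.4 in the rapamycin mice, with all 8 differences positive. Its lowest mice were PBS replicate 3 and rapamycin replicate 2, those in which Mdm2, Ccng1 and Ei24 were highest within their group. Its highest mice were rapamycin replicate 1, where these 3 genes were lowest, and PBS replicate 1, whereas with PBS the 3 genes were lowest in replicate 2. The mean of 7 T cell genes lay at 10.95 to 11.18 in the PBS mice, against 10.94 to 11.15 in the rapamycin mice. It too was highest in PBS replicate 3 and rapamycin replicate 2, and it was lowest of all in rapamycin replicate 1. Of 7 measured B cell genes 3 had negative differences, and their mean lay at 5.79 to 5.98 in the PBS mice, against 5.65 to 5.79 in the rapamycin mice, just short of overlap. That separation rested on Fcrl1 at -0.89 and Cd79b at -0.54, whereas Cd79a differed by -0.05, Ms4a1 by 0.05 and Pax5 by 0.01. Of 8 macrophage genes 7 had negative differences, of uneven size. Spic had -1.34, Vcam1 -0.90 and C1qa -0.56, whereas Csf1r and Cd68 each differed by -0.01 and Adgre1 by 0.10. The mean of the 8 lay at 8.25 to 8.74 in the PBS mice, against 7.84 to 8.37 in the rapamycin mice, and so overlapped. Of 6 measured erythroid genes 5 had positive differences, and their mean lay at 5.89 to 6.15 in the PBS mice, against 6.08 to 6.39 in the rapamycin mice. The part of these cells in the values of Trp53inp1, Perp and the other members was not tested.

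Other p53 targets were taken from 3 lists by function, of which 31 of 35 genes were measured. By limma's test across all genes 0 passed in either direction, 16 differences were negative and 15 positive, and the median was -0.01, equal to that of all genes to 2 decimals. Bax, Fdxr, Gls2 and Gdf15 had no probe set of their own by the rule. The groups lay apart for 5 of the 31 in the lower direction and 1 in the higher direction, beside 6.28% and 3.14% of all genes. At an unadjusted p under 0.05 there were 5 lower and 1 higher, beside 3.07% and 1.6% of all genes.

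Among 10 measured targets of cell cycle arrest, 6 differences were positive. Plk2, a polo-like kinase induced by stress, measured 5.52, 5.79 and 6.18 with PBS and 6.28, 7.53 and 6.91 with rapamycin. All rapamycin mice stood above all PBS mice, by 0.10 at the nearest, and the spread with rapamycin was wide. Plk2 was among the lowest 50% of genes, and its PBS replicates 1 and 2 lay below the array medians. Whether it was detected there was not tested. The difference was 1.08 (SE 0.29, adjusted p = 0.915 in limma's moderated test). Sfn, the 14-3-3 sigma protein, had -0.28 (SE 0.10) and Gtse1, a microtubule protein that restrains p53, -0.16 (SE 0.09), each at an adjusted p of 1.0 by limma.

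Among 9 measured targets of cell death, 5 differences were negative and 8 lay within 0.2 of no difference. Bid, a BH3-only protein that links death receptors to mitochondria, had the largest at -0.22 (SE 0.10). Siva1, a proapoptotic adaptor, had -0.15 and the TRAIL receptor Tnfrsf10b 0.08, and the 3 genes had a limma adjusted p of 1.0. Siva1 had 2 probe sets, and their mean gave -0.05. The p53 effectors Bbc3, Pmaip1 and Fas differed by -0.01, 0.01 and 0.13.

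Among 12 measured targets of repair and metabolism, 7 differences were negative, with a median of -0.14. Ddb2, a sensor of ultraviolet damage, measured 8.57, 8.56 and 8.42 with PBS and 8.18, 8.26 and 8.29 with rapamycin. The groups did not overlap, and the difference was -0.27 (SE 0.08, adjusted p = 0.97 by limma). Sesn1, a stress protein that restrains mTORC1, had -0.26 (SE 0.08, adjusted p = 0.975 by limma), with its groups apart. Its relative Sesn2 had -0.27. Ephx1, a microsomal epoxide hydrolase, had the lowest value of the list at -0.60 (SE 0.18, adjusted p = 0.97 by limma), but rapamycin replicate 3 and PBS replicate 1 lay level at 7.51, so the groups overlapped.

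**Figure D4:**
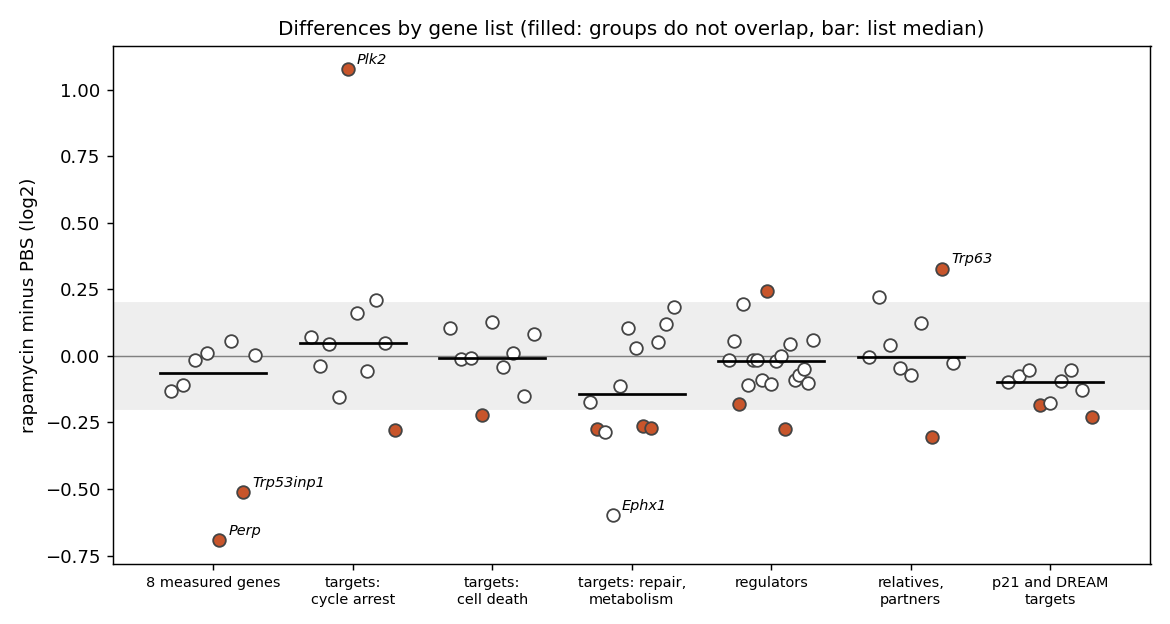
Difference (rapamycin minus PBS, log2) of each gene by list, where filled points are genes whose groups do not overlap, bars are list medians and the grey band spans 0.2 on either side of 0, which holds 91.1% of all genes. Trp53inp1 at -0.51, Perp at -0.69, Ephx1 at -0.60 and Plk2 at 1.08 lie farthest from 0.

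The closest relative of Trp53inp1, Trp53inp2, also lay lower in every rapamycin mouse. Trp53inp2 encodes an autophagy and nuclear hormone receptor cofactor, and measured 7.33, 7.33 and 7.37 with PBS and 7.01, 6.95 and 7.16 with rapamycin. The difference was -0.30 (SE 0.08, adjusted p = 0.951 by limma). Trp63, a p53 family factor of epithelia, had 0.33 (SE 0.08, adjusted p = 0.844 by limma) with its groups apart in the other direction. The ATG8-family proteins that Trp53inp1 binds in autophagy gave Gabarapl1 at 0.22 (SE 0.12, adjusted p = 1.0 by limma), Gabarap at 0.00, Gabarapl2 at 0.04, Map1lc3a at -0.05 and Map1lc3b at -0.07. Of the 9 measured relatives and partners 0 passed limma's test, and at an unadjusted p under 0.05 there was 1 in each direction, beside 3.07% lower and 1.6% higher over all genes.

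Of 19 measured regulators of p53, 0 passed limma's test. At an unadjusted p under 0.05 there was 1 in each direction, beside 3.07% lower and 1.6% higher over all genes. Differences were negative in 14, beside 55.3% of all genes, and 17 lay within 0.2 of no difference, beside 91.1% of all genes. Mdm4, the partner of Mdm2, differed by -0.02, the damage kinase Atm by -0.01 and the phosphatase Ppm1d by 0.00. Ppp1r13b, the p53 cofactor ASPP1, had -0.27 (SE 0.10, adjusted p = 0.982 by limma). Hipk2, a kinase that phosphorylates p53 and works with Trp53inp1, had 0.24 (SE 0.10), and Cdkn2a, the locus of the Mdm2 inhibitor Arf, had -0.18 (SE 0.08), both at an adjusted p of 1.0 by limma.

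Cell cycle genes that p53 lowers through p21 and the DREAM repressor were all on the negative side. All 9 measured genes had negative differences, beside 55.3% of all genes, from -0.23 to -0.05 with a median of -0.10. By limma 0 passed, and 1 had an unadjusted p under 0.05, beside 3.07% of all genes in the lower direction. The groups lay apart for 2, beside 6.28% of all genes in that direction. The mean of the list overlapped, from 9.78 to 9.97 with PBS against 9.68 to 9.83 with rapamycin. Plk1, a mitotic kinase, had -0.23 (SE 0.09), the cyclin Ccnb2 -0.18 (SE 0.08) and the anaphase activator Cdc20 -0.18 (SE 0.09), each at an adjusted p of 1.0 by limma.

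Genes with a pattern like that of Trp53inp1 were sought by Pearson's r over the 6 arrays, among 6132 other genes with a range of at least 0.4. The highest were Olfr775, an olfactory receptor (0.99), Tanc2, a synaptic scaffold protein (0.98), and Pou6f1, a POU homeodomain factor (0.98). The lowest were the microtubule protein Map9 (-0.98), the ciliary protein Cep290 (-0.98) and Cryzl2 (-0.98). The groups did not overlap for any of these 6, and r takes in the distance between the groups. All values of Olfr775, Map9 and Cep290 lay below the array medians, with Olfr775 between 3.40 and 3.96. So did Tanc2 in every rapamycin mouse and Cryzl2 in PBS replicate 1. Detection of these low genes was left unexamined. Perp had an r of 0.81 with Trp53inp1.

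With group means taken off, only the differences between mice of 1 group remain. The genes closest to Trp53inp1 were then Stag3, a meiotic cohesin subunit, at 0.999, Aqp1, a water channel, at 0.994 and Epor, the erythropoietin receptor, at 0.994. The genes farthest from it were Ace, the angiotensin-converting enzyme, at -0.996, Adam26b at -0.992 and Lclat1, an acyltransferase of cardiolipin remodelling, at -0.989. These 6 genes were the extremes of the same 6132 genes. All values of Stag3 and Adam26b lay below the array medians. Epor lay below them in every mouse but PBS replicate 1, and Ace and Aqp1 in some mice. Detection of these genes was likewise left unexamined. Against the other members r was then -0.43 for Perp, -0.45 for Mdm2, -0.41 for Ccng1, -0.39 for Ei24, -0.21 for Zmat3, 0.23 for Eda2r and 0.55 for Phlda3.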

How the data were processed

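Per the submitters' processing notes, the authors processed the arrays with Affymetrix Expression Console and RMA, and the deposited values are log2 expression per probe set. No source used here names their versions, the probe library or the genome build. RMA gives all arrays 1 distribution of probe intensities, so a shift shared by most genes is removed, and values near background are compressed. Of 35556 probe sets, 21789 named 1 symbol, 1621 several, and 12146 were not listed. For each gene the probe set of highest mean over the 6 arrays was kept. Titles gave group and replicate and call the samples biological replicates.

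All 19938 genes were fitted with limma 3.58.1 in R 4.3.3 (lmFit and eBayes, group only, 8.44 degrees of freedom), with Benjamini-Hochberg adjustment and genes were called where the adjusted p was under 0.05. No filter on low values was used. The fit was tested on simulated data. Alternatives were each mouse left out, a replicate block, no low 50% of genes, mean of probe sets, array medians subtracted, trend with robust, and array weights. The members and lists were chosen with earlier results of these data known. Named genes are all members and, from each list of other pathway genes, the 3 with the smallest p, with Sesn1, Bax and Cd3e in any case, and the 3 genes at each end of the likeness to Trp53inp1. Sesn2, Bbc3, Pmaip1, Fas, Mdm4, Atm, Ppm1d, further ATG8-family genes and single markers of other cells are named in addition, chosen with their values in view. Figures were drawn with matplotlib 3.10.9 in Python 3.11.15.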

Additional observations from a re-analysis of the deposited data

How the results depend on the processing

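The number of genes called by limma across all genes was 1, Glp1r, which is no member. It ranged from 0 to 7 when each mouse was left out, with 7 without rapamycin replicate 1, and was 0 with the replicate block. It stayed at 1 under the other 5 alternatives. In the fit with array weights, rapamycin replicate 1 had the lowest weight at 0.47, and the other arrays had 0.86 to 1.45. No member and no listed p53 pathway gene was called under any of the 12 alternatives. The Trp53inp1 difference ranged from -0.55 to -0.47 and the Perp difference from -0.80 to -0.52 over them. The number of members with a negative difference ranged from 4 to 8 when each mouse was left out, and was 8 without rapamycin replicate 2. The median of the members ranged from -0.10 to -0.03 and that of the other p53 targets from -0.03 to 0.01. The replicate numbers were not taken to pair the mice, since the labels state no pairing. Deviations from the group means correlated at 0.09, -0.19 and 0.19 for numbers 1, 2 and 3. Only PBS replicate 1 and rapamycin replicate 3 correlated best with their own number. Deviations of 3 mice from their own mean are tied to each other, so these values cannot decide whether mice were paired. With the lowest 50% of genes dropped, Phlda3, Eda2r, Plk2 and Trp63 had no value. With 3 arrays per group, the median standard error over all genes was 0.0955.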
